A study of Mus musculus with 23 samples.

Results

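Tumours that had become resistant to NVP-LDE225 at 40 mg/kg were compared with vehicle-treated tumours of the same model. NVP-LDE225 is a small-molecule antagonist of Smoothened, the membrane protein that carries the Hedgehog signal into the cell. The comparison used the 6 of 23 arrays whose labels read resistant at 40 mg/kg (3 arrays) or vehicle with no stated time (3 arrays). All 35069 non-control probe sets that passed a filter on low signal entered the test, of 45101 probe sets on the array, 64 of them controls. Both groups carried medulloblastoma cells of the genotype Ptch+/-HIC+/-, dissociated from tumours and grown under the skin of the flank of athymic nude mice (Harlan nu/nu), a host that lacks most T cells. Treatment began about 10 days after implantation. The labels give neither the length of treatment of the resistant tumours nor the age of the mice. They also do not say whether arrays of a group came from separate donor tumours. The p-values therefore cover only how far arrays scatter within groups, which may be technical. That scatter was pooled over all 8 groups of the 23 arrays, not taken from the 6 compared arrays alone. Reference values came from resistant tumours at 160 mg/kg (3 arrays), from tumours labelled sensitive that were taken 48 h after the drug at 40 mg/kg (3 arrays), and from vehicle tumours taken at 4 h (2 arrays).

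Granule neuron progenitors of the cerebellum divide in response to Sonic hedgehog, and loss of the receptor Ptch1 leaves Smoothened active without a ligand. Active Smoothened releases the transcription factors Gli1 and Gli2 from restraint by Sufu, and these raise Gli1, Ptch1, Hhip, Mycn and the D-type cyclin Ccnd1. Because Gli1 and Ptch1 are themselves targets, their transcripts are used as a readout of pathway activity. The question behind the comparison was what distinguishes tumours that grow despite the drug, and whether their Hedgehog output, growth signals and cell cycle look like those of tumours never treated.

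All 6 arrays had a trimmed mean signal of 150 and a median signal of 36 to 44.1, and the 3 arrays of a group correlated with each other at 0.950 to 0.961 (resistant) and 0.963 to 0.969 (vehicle). The median standard deviation of log2 values within a group was 0.269 for resistant and 0.205 for vehicle arrays. In the other groups it was 0.176 to 0.257. The 3'/5' log2 signal difference of the actin control probe sets, which grows as RNA breaks down, was 1.46, 0.885 and 0.914 on resistant arrays 1, 2 and 3, against 1.00 to 1.08 on the vehicle arrays. The same difference for Gapdh was 0.405, -0.167 and -0.242 on resistant arrays 1, 2 and 3, against -0.243 to -0.111 on the vehicle arrays, so resistant array 1 stood apart on both. Atoh1 and Zic1, transcription factors of the granule lineage chosen after their values were seen, were bright in both groups. Atoh1 gave 3176, 3747 and 3747 in resistant tumours, against 4705, 3815 and 3784 in vehicle tumours. Zic1 gave 5572, 3796 and 4033 in resistant tumours, against 4663, 4099.8 and 4404 in vehicle tumours. One transcript, Ccdc138, separated sets of arrays in a way the treatment does not follow. It gave 2768, 2296 and 2414 in resistant tumours at 40 mg/kg and 2572, 2104 and 2664 in vehicle tumours, against 30.9, 30.2 and 23.2 at 48 h and 22.9 and 39.7 in the 4 h vehicle tumours. At 160 mg/kg it gave 2754, 42.5 and 2508, with array 2 low. In every comparison with 48 h, drug exposure and whatever else separates these sets cannot be told apart. The same limit holds for comparisons with the 4 h vehicle arrays, which are only 2, and for array 2 at 160 mg/kg.

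At a Benjamini-Hochberg adjusted p below 0.05 in limma, 2495 probe sets differed between resistant and vehicle tumours (7.11% of 35069), 1342 higher and 1153 lower in the resistant tumours. With each gene represented by its brightest probe set, 1474 of 14980 genes were called (9.84%), 807 higher (5.39%) and 667 lower (4.45%). The last 2 shares are the background for every list count against vehicle below. Among these, 459 were at least 2-fold higher and 121 at least 2-fold lower, where a fold is computed from log2(signal + 16) and so understates the change of dim genes. Signals of the 3 resistant arrays lay wholly above or wholly below those of the 3 vehicle arrays for 3725 genes (24.9%). The median gene differed by 0.02 on the log2 scale. The number of called probe sets was 1468 without vehicle array 1 and 1658 without vehicle array 3.

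Neither Gli1 nor Ptch1 differed from vehicle past the test in the resistant tumours. Gli1, an effector and target of the pathway, gave signals of 1259, 1269 and 966 in resistant tumours, against 631, 696 and 710.2 in vehicle tumours. All 3 resistant values lay above all 3 vehicle values, with a log2 difference of 0.76 (95% interval 0.11 to 1.40), which did not pass the test (adjusted p = 0.167). The call depended on the fit: with only the 6 arrays entered, the adjusted p was 0.0106. Ptch1 gave 2296, 2885 and 2079 in resistant tumours, against 2830.5, 2513 and 2796 in vehicle tumours, and the groups overlapped (log2 difference -0.18, 95% interval -0.48 to 0.13, adjusted p = 0.578). In the sensitive tumours at 48 h, Gli1 gave 4.2, 14.1 and 18.6 and Ptch1 gave 253, 302 and 217. Both were far higher in the resistant tumours than at 48 h, by 5.41 (adjusted p = 6.08e-12) and 3.16 (adjusted p = 8.95e-14) on the log2 scale.

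**Figure D1:**
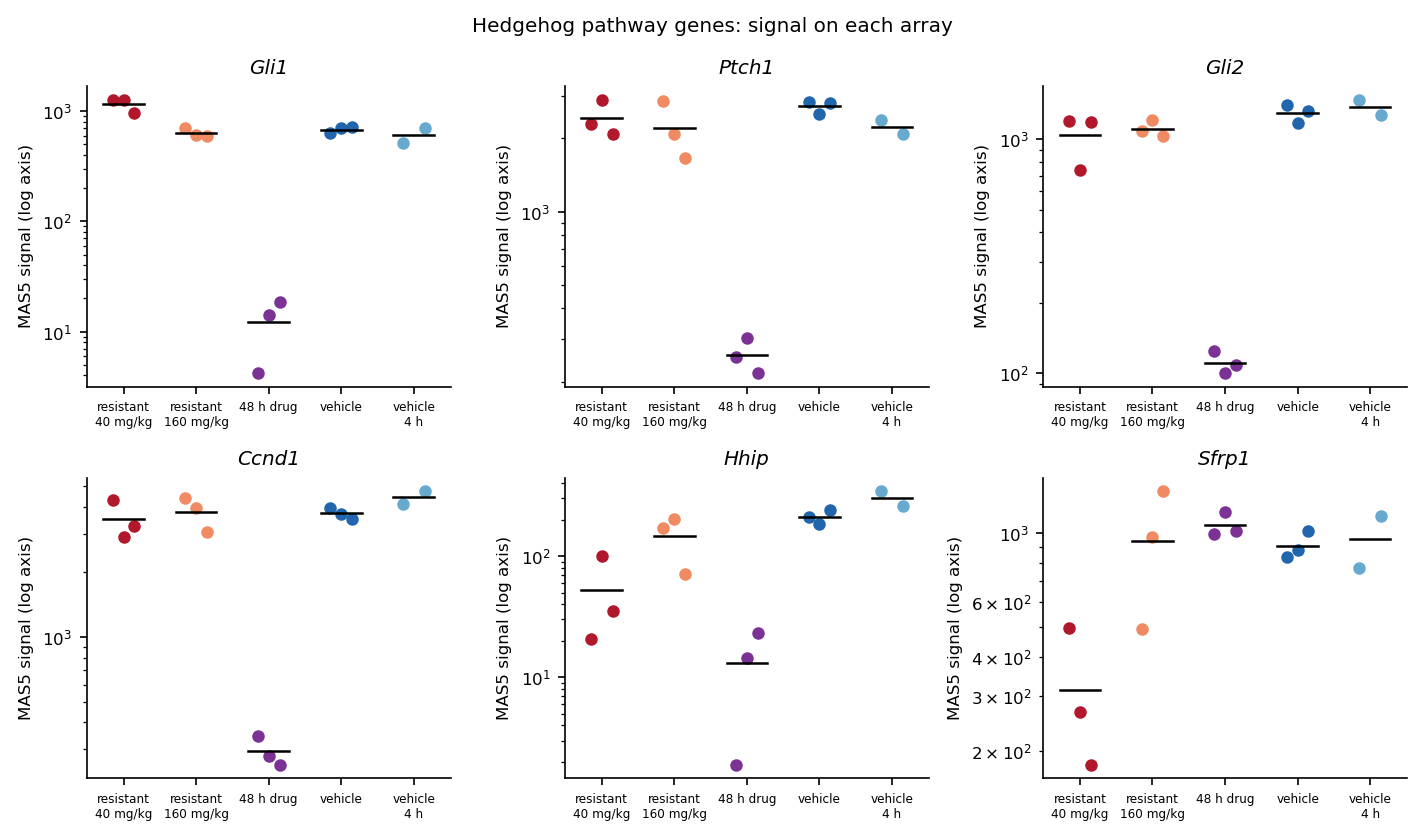
MAS5 signal of 6 Hedgehog pathway genes on a log axis, 1 point per array and a bar at the group mean, for resistant tumours at 40 and 160 mg/kg, tumours at 48 h of drug, and both vehicle groups. Gli1 of the 3 resistant arrays at 40 mg/kg lies above every vehicle array, Ptch1, Gli2 and Ccnd1 overlap vehicle, and Hhip and Sfrp1 lie below every vehicle array.

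Gli2, Ccnd1, Mycn, Smo and Sufu also did not pass the test against vehicle. Gli2, the main activator of the pathway, gave 1195, 741 and 1189 in resistant tumours, against 1399.8, 1176 and 1319 in vehicle tumours (log2 difference -0.34, 95% interval -0.63 to -0.06, adjusted p = 0.149). The cyclin gene Ccnd1 gave 4324, 2912 and 3289 in resistant tumours, against 3971, 3719 and 3533 in vehicle tumours (-0.11, interval -0.39 to 0.17, adjusted p = 0.734). Resistant tumour 2 was the lowest for both genes, and neither passed the test. Mycn, which drives proliferation of granule progenitors, differed by -0.28 (interval -0.54 to -0.02, adjusted p = 0.206), and its 3 resistant values of 1041, 889.5 and 923 lay below the vehicle values of 1111, 1286 and 1079. Smo, the drug target, differed by -0.27 (interval -0.51 to -0.02, adjusted p = 0.202) on a probe set that may also match other transcripts. Sufu, the inhibitor of the Gli factors, differed by 0.04 (interval -0.25 to 0.32, adjusted p = 0.928). Of 20 tested genes beside Gli2 on chromosome 1, 1 was called higher and 2 lower, with a median of -0.04, and the 13 beside Ccnd1 on chromosome 7 ranged from -0.22 to 0.89, with a median of 0.12.

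Some genes on the list of Hedgehog targets were lower than in vehicle tumours. Hhip, which encodes a cell-surface protein that binds and sequesters Hedgehog ligand, gave 20.6, 100.5 and 35.4 in resistant tumours, against 210.2, 184 and 238 in vehicle tumours. It fell in all 3 resistant tumours, by a log2 difference of -1.90 ± 0.35 (SE, adjusted p = 0.00129), and all 4 of its tested probe sets were called lower. Relative to 48 h it was higher by 1.12 (adjusted p = 0.0163), although the values of 1.9, 14.4 and 23.4 at 48 h overlapped those of resistant tumour 1. Sfrp1, a secreted antagonist of Wnt ligands, gave 496, 266 and 181 in resistant tumours, against 836, 884 and 1013 in vehicle tumours (log2 difference -1.60 ± 0.27 SE, adjusted p = 0.00063), and all 5 of its probe sets were called lower. At 48 h Sfrp1 gave 991, 1169.7 and 1013, within or above the range of the vehicle values, so unlike Gli1 and Ptch1 it was not low at 48 h. It was also lower in the resistant tumours than at 48 h (-1.81, adjusted p = 1.37e-05). In a bulk tumour, fewer cells that express a gene and less of its RNA per cell cannot be told apart.

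Of 19 measured Hedgehog targets of 21 listed, 1 was called higher (5.26%) and 5 lower (26.3%), with a median of -0.25. Over all genes, 5.39% were higher and 4.45% lower. Cdk6, a partner kinase of the D-type cyclins, gave 789.5, 828 and 459 in resistant tumours, against 2126, 1444 and 1822 in vehicle tumours, without overlap (-1.38 ± 0.19 SE, adjusted p = 7.53e-05). Ntrk3, a receptor for neurotrophin-3, fell by 2.53-fold (adjusted p = 0.0018), and was not called against the 4 h vehicle arrays (0.0572). Of their probe sets, 2 of 3 for Cdk6 and 3 of 7 for Ntrk3 were called lower. Fst, which encodes the activin-binding protein follistatin, and Foxm1, a transcription factor of the mitotic programme, were chosen after their values were seen. Fst rose (0.65, adjusted p = 0.0458) and Foxm1 fell (-1.12, adjusted p = 0.0334). The other probe set of Fst (0.50, adjusted p = 0.337) and the other 2 of Foxm1 (-0.64, adjusted p = 0.221, and -0.33, adjusted p = 0.515) were not called, and Foxm1 was not called against the 4 h vehicle arrays (0.0715). Leaving out any 1 of the 6 arrays ended the call of Fst (adjusted p 0.0554 without resistant array 2 to 0.165 without resistant array 3), and leaving out any but resistant array 3 ended that of Foxm1 (0.0665 without resistant array 1 to 0.118 without vehicle array 3). Among 20 measured genes for other pathway components, none was called higher and 2 fell (10%, where 4.45% of all genes were lower), the co-receptor Gas1 (-0.81 ± 0.16 SE, adjusted p = 0.00285) and Evc, a protein of the base of the cilium (-0.62, adjusted p = 0.0397). The component count called lower was 5 without resistant array 3 and 1 without resistant array 2 or any vehicle array. Evc had 1 of 2 probe sets called lower, and its call was lost without resistant array 2 (adjusted p = 0.209) and without vehicle array 1, 2 or 3 (0.0844, 0.056 and 0.169). The Gli consensus GACCACCCA, read on both strands, was in 0 of the 10 Hedgehog target genes with a RefSeq promoter window and in 0.289% of genes in the whole table, which says only that these letters are absent from these 300-base windows.

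Genes of cell division fell in the resistant tumours against vehicle, and were higher than at 48 h. Of 45 measured mitosis genes, 37 were called lower and none higher (4.45% of all genes were called lower), with a median of -0.77. Of 47 measured genes of DNA replication and S phase, 21 were called lower and none higher, with a median of -0.55. The difference was negative for all 45 mitosis genes and for 46 of the replication genes. The summed signal of the mitosis genes was 26097 to 41112 in resistant tumours, against 54619 to 55447 in vehicle tumours, and 7160 to 10128 at 48 h. Against 48 h, all 45 mitosis genes and all 47 replication genes were higher in the resistant tumours, where 17.8% of all genes were higher.

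**Figure D2:**
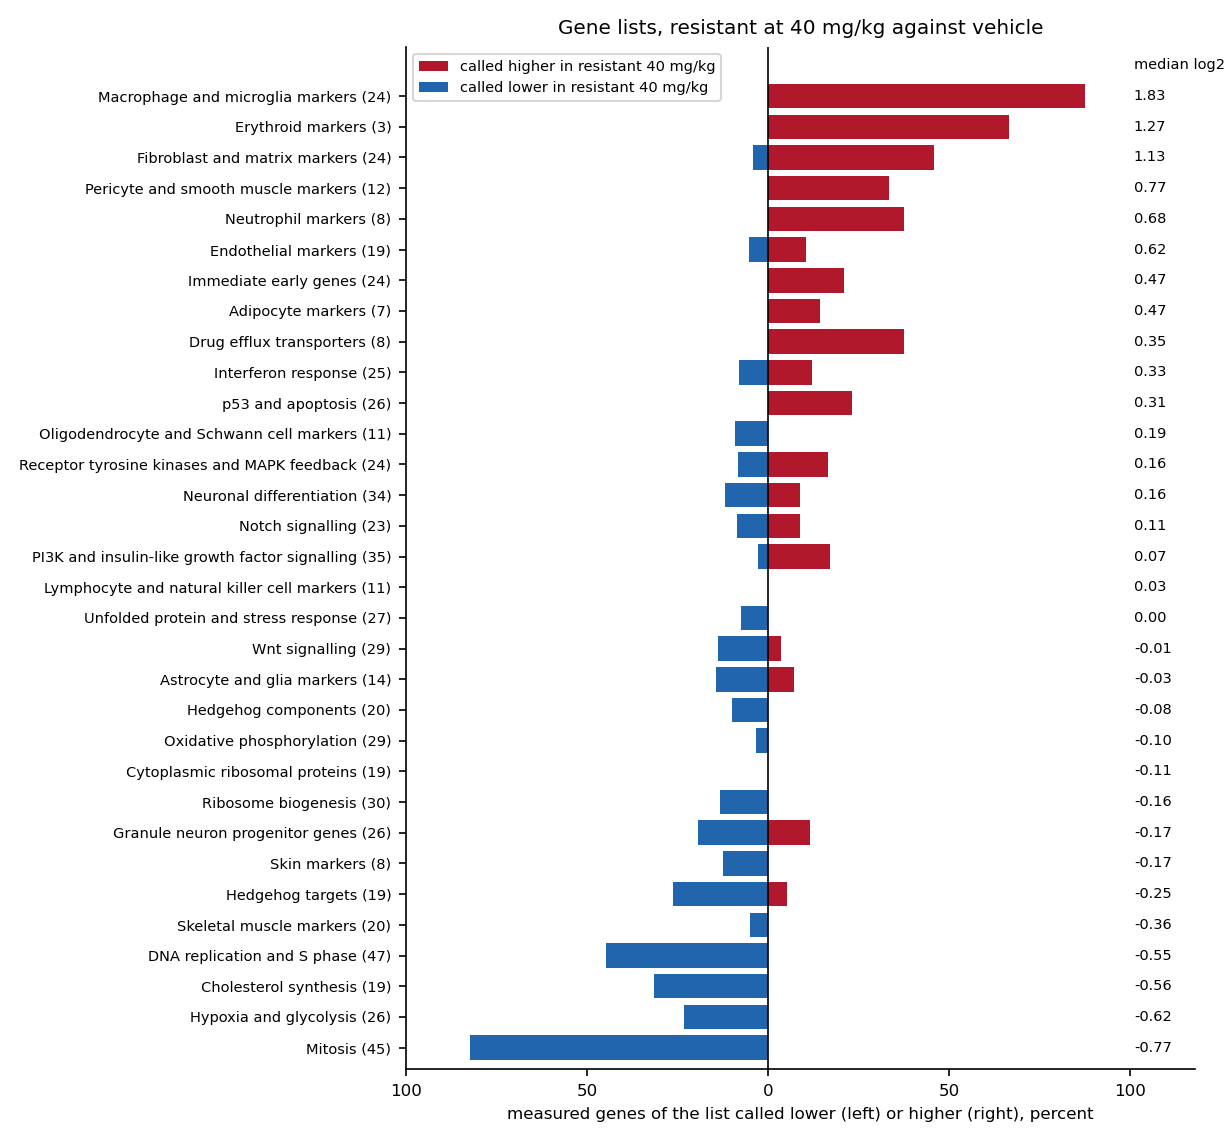
Share of the measured genes of each list called lower (left, blue) or higher (right, red) in resistant tumours at 40 mg/kg against vehicle, in percent, with the number measured in brackets and the median log2 difference at the right. Mitosis genes stand at the bottom with 37 of 45 lower, and macrophage markers at the top with 21 of 24 higher.

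Mad2l1, a spindle checkpoint protein, gave 648, 764 and 1034 in resistant tumours, against 1517, 1739 and 1823 in vehicle tumours (-1.06 ± 0.18 SE, adjusted p = 0.000613). Top2a, the topoisomerase that untangles replicated chromosomes, gave 1629, 1999.5 and 2349.6 in resistant tumours, against 4042, 3665 and 3509 in vehicle tumours (-0.92 ± 0.18 SE, adjusted p = 0.00201). Resistant tumour 1 was the lowest and resistant tumour 3 the highest of the resistant group for both, and neither gene overlapped vehicle. Resistant array 1 also had the highest 3'/5' difference of both control genes, and its part in the fall of the mitosis genes was not tested beyond the counts without it. Birc5, which encodes survivin, fell by 1.98-fold (adjusted p = 0.00111), and the mitotic kinase gene Aurkb by 1.98-fold (adjusted p = 0.00147). Among replication genes, Cdt1, which loads the replicative helicase, gave 1108, 927 and 1346 in resistant tumours, against 1796, 1927 and 1985 in vehicle tumours (-0.76, adjusted p = 0.00236). Mcm4, a subunit of that helicase, fell by 1.8-fold (adjusted p = 0.00272), Pola2, a subunit of the priming polymerase, by 1.85-fold (0.00129, 1 of 3 probe sets called), and the DNA ligase gene Lig1 by 1.71-fold (0.00193). The number of mitosis genes called lower depended on single arrays, at 12 without resistant array 1, 20 without resistant array 2, 40 without resistant array 3, and 17, 17 and 16 without vehicle array 1, 2 or 3. It was 18 with eBayes without a trend. For the replication genes the count was 10, 12 and 30 without resistant array 1, 2 or 3, and 16, 10 and 10 without vehicle array 1, 2 or 3. The summed signal of macrophage markers was 20260 to 26444 in resistant tumours, against 3444 to 6319 in vehicle tumours, and its part in these falls was not tested.

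**Figure D3:**
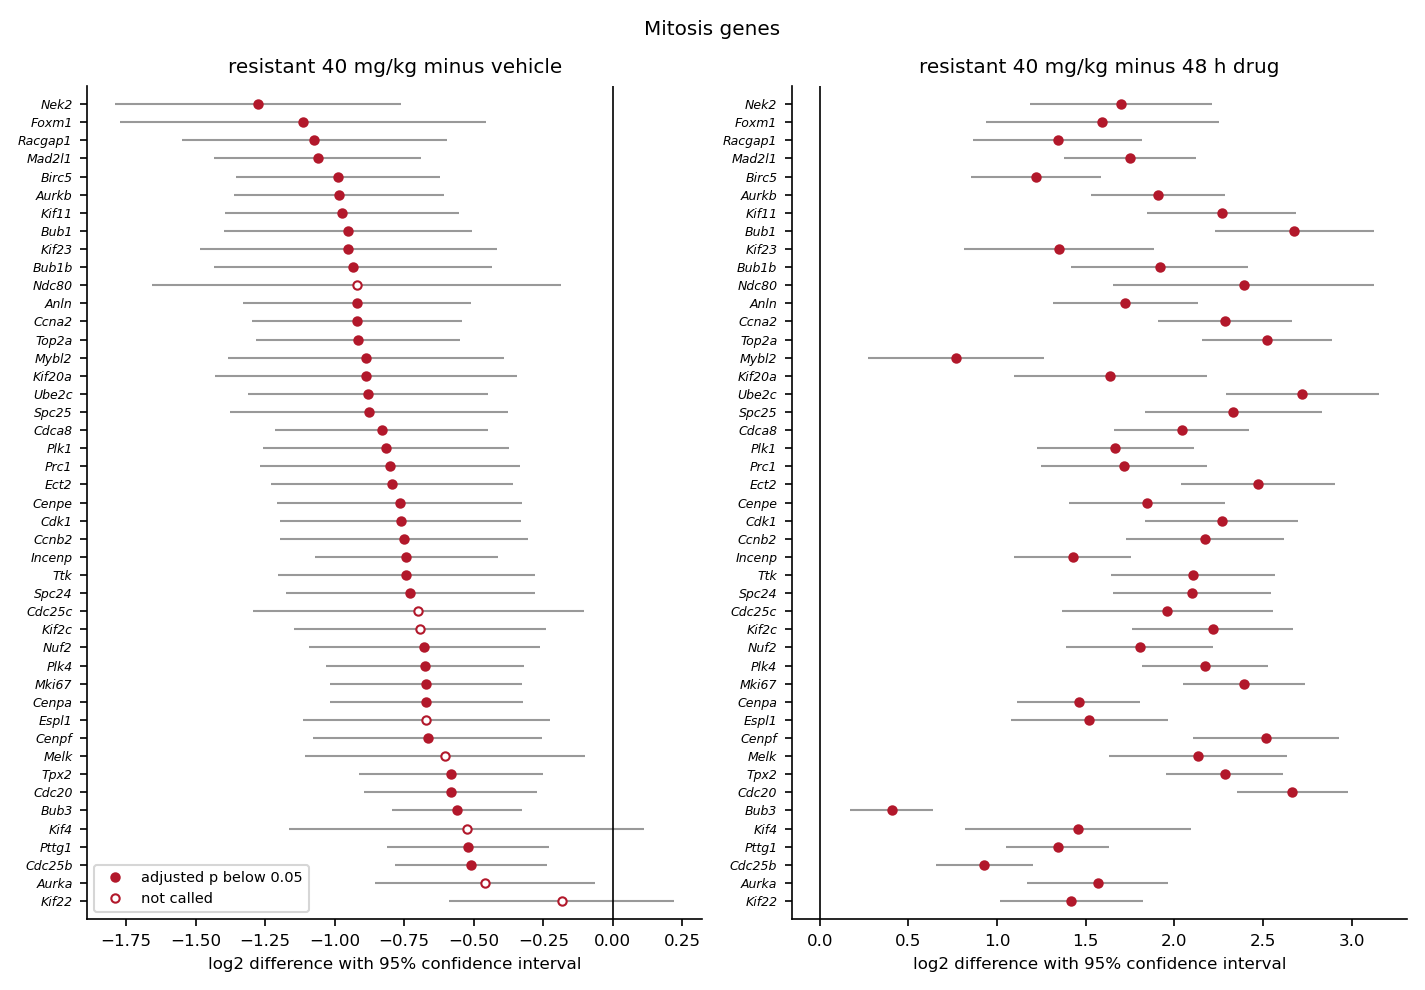
Log2 difference with its 95% confidence interval for each of 45 mitosis genes, in resistant tumours at 40 mg/kg minus vehicle (left) and minus tumours at 48 h of drug (right), with filled points where the adjusted p was below 0.05. Every point lies below 0 on the left, 37 of them called, and above 0 on the right, all 45 called.

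Promoter sequence was read for the mitosis genes because they moved together. A search added after the values were seen looked for the letters of the cell cycle homology region, TTTGAA, a short element of late cell cycle promoters, on both strands of the RefSeq promoter windows (250 bases before to 50 after each gene start, build GRCm38.p6). It was found in 26 of the 37 mitosis genes with a window (70.3%), against 14.7% of all tested genes with a window, 20.2% of all genes in the promoter table and 12.8% of the replication genes with one. Mitosis genes called lower held it in 20 of 30 and those not called in 6 of 7, so the letters did not mark the called genes. Of 37 matches in the mitosis windows, 27 lay between 60 bases before and 50 after the start. Matches were counted for each window, so sites in overlapping windows of the same gene, as in Bub3, Ect2 and Prc1, entered more than 1 time. The 100 bases before the start are shown for Top2a (chr11:99024190-99024289, minus strand), Cdc20 (chr4:118437344-118437443, minus strand), Cdk1 (chr10:69352913-69353012, minus strand) and Ube2c (chr2:164769829-164769928, plus strand), 5′ to 3′ along the gene, with TTTGAA or its reverse complement TTCAAA in capitals. The last 3 of these genes were chosen after their values were seen.
Top2a: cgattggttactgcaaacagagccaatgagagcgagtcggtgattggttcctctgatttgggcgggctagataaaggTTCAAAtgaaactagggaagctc
Cdc20: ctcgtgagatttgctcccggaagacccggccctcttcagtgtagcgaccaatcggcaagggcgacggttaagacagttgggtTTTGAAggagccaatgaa
Cdk1: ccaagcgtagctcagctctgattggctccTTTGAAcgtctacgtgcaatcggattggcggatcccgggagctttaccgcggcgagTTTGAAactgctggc
Ube2c: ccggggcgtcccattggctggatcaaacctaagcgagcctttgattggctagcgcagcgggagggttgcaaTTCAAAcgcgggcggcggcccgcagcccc
In these windows the capitals stand close before the start in all 4 genes, and Cdk1 has a second copy farther out. Other mitosis genes hold the letters after the start, at base 31 in Plk1, 14 in Cdca8 and 17 in Cenpa. The 4 windows shown therefore do not stand for the placement in the whole list. Cdc20, the activator of the anaphase-promoting complex, gave 1944, 2395 and 2775 in resistant tumours, against 3749, 3309 and 3527 in vehicle tumours (-0.58, adjusted p = 0.018). Cdk1, the kinase that starts mitosis, gave 930.5, 1237 and 1637 in resistant tumours, against 2137, 2058 and 2125 in vehicle tumours (-0.76, adjusted p = 0.0268). Ube2c, the ubiquitin-conjugating enzyme of the same complex as Cdc20, gave 984, 1651 and 1966 in resistant tumours, against 2731, 2985 and 2485 in vehicle tumours (-0.88, adjusted p = 0.00993). None of these 3 genes overlapped between the groups. Without resistant array 1 the adjusted p was 0.108 for Cdc20, 0.154 for Cdk1 and 0.0802 for Ube2c. Cdc20 also lost its call without vehicle array 1 (0.0807) or 3 (0.0551), and Cdk1 without resistant array 2 (0.0649) or vehicle array 1, 2 or 3 (0.0813, 0.0651 and 0.0755).

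Genes of the granule lineage moved in both directions. Neurod1, a transcription factor of granule cells that leave the cycle, gave 2393, 776 and 1591 in resistant tumours, against 336, 293 and 284 in vehicle tumours. It rose 4.54-fold (log2 2.18 ± 0.28 SE, adjusted p = 4.09e-05), with no overlap, but was lower than at 48 h, where it gave 6215, 6616 and 6475 (-2.15, adjusted p = 2.69e-06). Sox11, a factor of young neurons, gave 2788, 1944 and 2539.9 in resistant tumours, against 1436, 1266 and 1343 in vehicle tumours (0.82, adjusted p = 0.000226), and all 6 of its probe sets were called higher. The inhibitors of differentiation Id1 and Id2 moved in opposite directions. Id1 gave 528, 525 and 419 in resistant tumours, against 221, 299 and 219 in vehicle tumours (0.96, adjusted p = 0.000558), while Id2 gave 552, 708 and 446 in resistant tumours, against 1186, 1226 and 1551 in vehicle tumours (-1.21, adjusted p = 4.09e-05). Of 26 measured granule progenitor genes, 3 were called higher (11.5%) and 5 lower (19.2%), with a median of -0.17. The count called lower was 2 without vehicle array 1 or 2, 3 without resistant array 2 or vehicle array 3, and 7 without resistant array 1.

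Genes of neuronal differentiation, from young to mature neurons, did not follow a common direction, and the resistant arrays stood on both sides of vehicle. The summed signal of the list was 17806.5, 11425.4 and 8888.5 on resistant arrays 1, 2 and 3, against 13876 to 14627.7 on the vehicle arrays. Of 34 measured, 3 were called higher (8.82%) and 4 lower (11.8%), with a median of 0.16. Elavl3, a neuronal RNA-binding protein, rose 1.92-fold (adjusted p = 0.00132), whereas Nptx1, a secreted synaptic pentraxin, fell by 1.69-fold (0.00241) and Grin2c, an NMDA receptor subunit of granule cells, by 1.87-fold (0.000263). Against the 4 h vehicle arrays, Elavl3 (adjusted p = 0.0646), Grin2c (0.615) and Ina (0.628, log2 difference 0.43) were not called. Ina, a neuronal intermediate filament, gave 682, 167 and 93 in resistant tumours, against 65.1, 60.1 and 55.6 in vehicle tumours (1.66, adjusted p = 0.00491), and its difference was 0.89 without resistant array 1. The list counts were 7 higher without resistant array 3 and 8 lower without resistant array 1. Of the same 34 genes, 26 were lower in the resistant tumours than at 48 h, where 19.2% of all genes were lower.

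Receptors and signals of growth factors changed gene by gene. Igf1, insulin-like growth factor 1, gave 339, 338 and 382 in resistant tumours, against 53.3, 58.2 and 76.8 in vehicle tumours. Every resistant array was above every vehicle array, and the rise was 4.72-fold (log2 2.24 ± 0.31 SE, adjusted p = 7.99e-05) with all 4 probe sets called. Macrophages are a known source of Igf1, and the markers of these cells rose in the same tumours (21 of 24 called higher); their part in the rise of Igf1 was not tested. Its receptor Igf1r differed by 0.04 (95% interval -0.22 to 0.30, adjusted p = 0.915) and the related ligand Igf2 by -0.25 (interval -0.49 to -0.02, adjusted p = 0.217). Pik3r3, a regulatory subunit of phosphatidylinositol 3-kinase, gave 959, 707 and 779.8 in resistant tumours, against 584, 479 and 535 in vehicle tumours, again without overlap (0.59 ± 0.12 SE, adjusted p = 0.00306), and it was not called against the 4 h vehicle arrays (adjusted p = 0.0742). Of 35 measured genes of the phosphatidylinositol 3-kinase and insulin-like growth factor list, 6 were called higher (17.1%) and 1 lower (2.86%), with a median of 0.07. The binding protein genes Igfbp4 (1.85, adjusted p = 0.0018) and Igfbp7 (1.32, adjusted p = 0.00849) were among the 6, and Igfbp7 lost its call without resistant array 2 (0.0647) or vehicle array 1 (0.0663). The gene called lower, Pdk1, encodes in the mouse a kinase of pyruvate dehydrogenase rather than a kinase of this pathway, and it was not called without resistant array 1 (0.109) or vehicle array 1 (0.124) or 3 (0.0672). The count called higher was 3 without resistant array 2 or vehicle array 1, and 4 without vehicle array 3.

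Egfr, the epidermal growth factor receptor, gave 234, 213 and 122 in resistant tumours, against 563, 549.9 and 664 in vehicle tumours. It fell 3.04-fold (log2 -1.61 ± 0.15 SE, adjusted p = 8.96e-07) without overlap on the brightest of 6 probe sets, 3 of which were called lower, and was also lower than at 48 h (-1.37, adjusted p = 2.14e-07). Dusp4, a phosphatase that MAP kinase signalling induces, gave 788, 966 and 629 in resistant tumours, against 496, 360.5 and 398 in vehicle tumours (0.89, adjusted p = 0.00798), and its adjusted p was 0.0543 without resistant array 2. Of 24 measured receptor tyrosine kinase and MAP kinase feedback genes, 4 were called higher (16.7%) and 2 lower (8.33%), with a median of 0.16. The 4 were Dusp4, Dusp6 and the platelet-derived growth factor receptors Pdgfra and Pdgfrb, the last 2 of which are also on the lists of fibroblast and pericyte markers. The count called higher fell to 1 without resistant array 2 or vehicle array 1, and to 2 without resistant array 3 or vehicle array 3. Among 24 immediate early genes, 5 were called higher (20.8%) and none lower, with a median of 0.47. Ccn2, which encodes a matrix-associated growth factor, gave 1167, 786 and 973 in resistant tumours, against 151, 255 and 297 in vehicle tumours (2.02 ± 0.39 SE, adjusted p = 0.00201). Ier2 gave 327, 317 and 254 in resistant tumours, against 179, 173 and 156 in vehicle tumours (0.76, adjusted p = 0.00159). Neither Ccn2 nor Ier2 overlapped between the groups, and the list count was 3 without resistant array 1 or vehicle array 2 or 3.

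Some enzymes of glycolysis and of sterol synthesis fell. Of 26 measured hypoxia and glycolysis genes, 6 were called lower (23.1%) and none higher, with a median of -0.62. Of 19 cholesterol synthesis genes, 6 were called lower (31.6%) and none higher, with a median of -0.56. Ldha, lactate dehydrogenase, gave 2014, 2418 and 2909 in resistant tumours, against 5965, 3617 and 4306 in vehicle tumours (-0.90, adjusted p = 0.00303), and Pkm, pyruvate kinase, fell by 1.58-fold (0.00282). Egln3, an oxygen-sensing prolyl hydroxylase that is itself induced by hypoxia, gave 42.4, 42.4 and 87.3 in resistant tumours, against 436, 110.3 and 262 in vehicle tumours (-1.83, adjusted p = 0.00122). The vehicle arrays were uneven: vehicle tumour 1 was the highest and vehicle tumour 2 the lowest for Ldha and Egln3, though even vehicle tumour 2 lay above all resistant tumours. Without vehicle array 1 the list had 3 genes called lower, and without vehicle array 2 it had 9. Cyp51, the sterol demethylase, gave 236, 348 and 304 in resistant tumours, against 516, 579 and 523 in vehicle tumours (-0.84, adjusted p = 0.00539, 1 of 3 probe sets called), and Nsdhl, a later enzyme of the same route, fell by 1.5-fold (0.00259). The cholesterol count was 3 without vehicle array 2 or 3, 4 without resistant array 1 or vehicle array 1, and 12 against the 4 h vehicle arrays.

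Of 24 measured macrophage and microglia markers, 21 were called higher and none lower (5.39% of all genes were higher), with a median of 1.83, and leaving out any 1 array gave 20 to 22. Lyz2, a lysozyme of myeloid cells with a near-identical neighbour Lyz1, gave 3328, 3115 and 3215 in resistant tumours, against 403, 592 and 667 in vehicle tumours (2.53 ± 0.34 SE, adjusted p = 5.15e-05). Fcgr3, a receptor for the constant part of antibodies, gave 474, 352 and 323 in resistant tumours, against 40.6, 60.1 and 85.1 in vehicle tumours (2.38 ± 0.31 SE, adjusted p = 4.09e-05). All 3 resistant tumours lay above all vehicle tumours for both genes. Of markers chosen after their values were seen, Csf1r, the receptor for colony-stimulating factor 1, gave 2207, 1917 and 1082 in resistant tumours, against 282, 556 and 601 in vehicle tumours (adjusted p = 0.00236). Cd163, a scavenger receptor for haemoglobin, gave 128, 37.2 and 38 in resistant tumours, against 0.9, 0.9 and 1.3 in vehicle tumours (adjusted p = 0.00289). The vehicle level of Cd163 lay near the bottom of the scale, so its fold is not given. The summed signal of the 24 markers was 20260 to 26444 in resistant tumours, against 3444 to 6319 in vehicle tumours. At 48 h it was 52489 to 69506, and 22 of the 24 were lower in the resistant tumours than at 48 h, where 19.2% of all genes were lower.

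Slc40a1 and Hmox1 were among the 15 largest rises. Slc40a1, which encodes the iron exporter ferroportin, gave 859, 1731 and 1805 in resistant tumours, against 176, 97.4 and 112 in vehicle tumours (9.98-fold, log2 3.32 ± 0.34 SE, adjusted p = 2.07e-06). Hmox1, the oxygenase that degrades haem, gave 691, 838 and 1782 in resistant tumours, against 126, 78.2 and 82.3 in vehicle tumours (9.39-fold, log2 3.23 ± 0.47 SE, adjusted p = 0.000128). Resistant tumour 1 was the lowest of the resistant group for both. It lay above every vehicle tumour, which the rule for naming the largest rises requires. Alas2, the haem synthesis enzyme of red cell precursors, gave 385, 163 and 159 in resistant tumours, against 13.4, 4.2 and 34.3 in vehicle tumours (2.91, adjusted p = 0.00132). At 48 h Alas2 gave 3.7, 8.4 and 36.8, so it was higher in the resistant tumours (2.98, adjusted p = 0.000118), whereas Slc40a1 (-0.89, adjusted p = 0.0501) and Hmox1 (-0.90, adjusted p = 0.157) did not pass the test against 48 h.

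**Figure D4:**
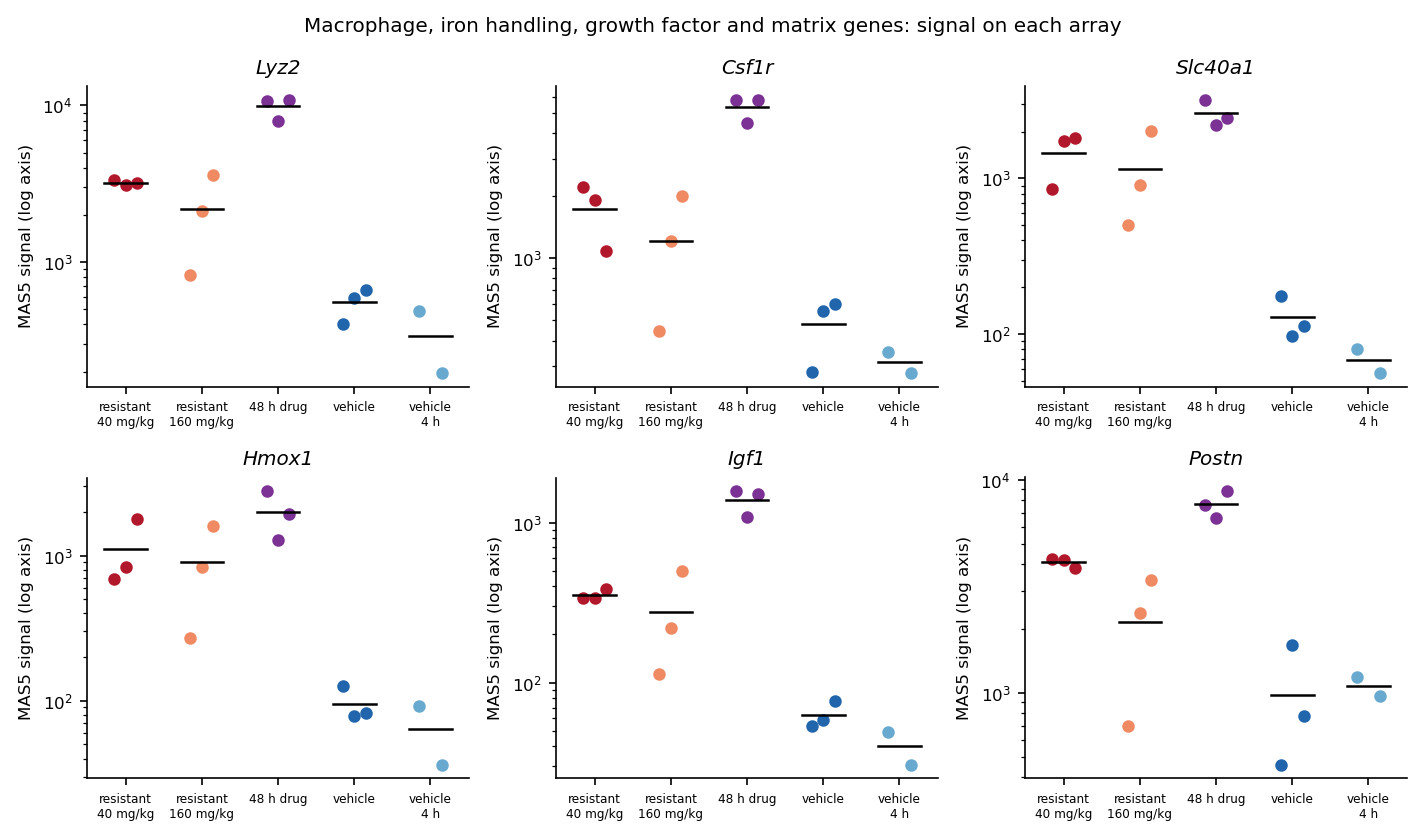
MAS5 signal on a log axis of the macrophage genes Lyz2 and Csf1r, the iron and haem genes Slc40a1 and Hmox1, the growth factor gene Igf1 and the matrix gene Postn, 1 point per array and a bar at the group mean. In all 6 panels the 3 resistant arrays at 40 mg/kg lie above the 5 vehicle arrays and below the highest 48 h array.

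Some matrix and vessel wall genes rose as well. Of 24 measured fibroblast and matrix markers (median 1.13), 1 was called lower (4.17%) and 11 higher (45.8%), a count that was 5 without vehicle array 1. Postn, the matrix protein periostin, gave 4244, 4179 and 3845 in resistant tumours, against 459, 1674 and 776 in vehicle tumours (2.25 ± 0.42 SE, adjusted p = 0.00158). Fn1, fibronectin, gave 2319, 2056 and 2929 in resistant tumours, against 432, 734 and 751 in vehicle tumours (1.93 ± 0.33 SE, adjusted p = 0.000718). Thbs1, a matrix protein that restrains vessel growth, rose 6.28-fold (adjusted p = 0.000472). The smooth muscle actin gene Acta2 rose 2.53-fold (adjusted p = 0.00326). It was 1 of 4 called higher (33.3%) of 12 pericyte and smooth muscle markers. That count was 1 without resistant array 2 or 3, 2 without vehicle array 1 and 6 without resistant array 1. Of 19 endothelial markers, Vwf (1.33, adjusted p = 0.00348) and Ptprb (1.07, adjusted p = 0.00619) rose, while Sox18 fell (-1.67, adjusted p = 5.51e-05), and without resistant array 1 the count called higher was 5. Skeletal muscle genes, which mark tissue beside a flank tumour, summed to 475 to 7023 in resistant tumours, against 1121 to 14926 in vehicle tumours, a range within each group wider than the gap between them.

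Called members made up 20% of the interferon genes, 23.1% of the p53 and apoptosis genes and 37.5% of the drug efflux transporters, where 9.84% of all genes were called. Ifit2 and Ifih1, which respond to interferon and sense viral RNA in the case of Ifih1, fell by 2.77-fold (adjusted p = 0.000475) and 2.59-fold (0.000792), although 3 other genes of the 25 measured, among them B2m, the light chain of class I molecules, rose (1.08, adjusted p = 0.00298 for B2m). The count called higher was 1 without resistant array 1 or 2 or vehicle array 1. Of 26 measured p53 and apoptosis genes, 6 were called higher and none lower (median 0.31), and 3 without resistant array 1 or 2. Bcl2l11, which encodes the death-promoting protein Bim, gave 1328, 1155 and 1229 in resistant tumours, against 665, 527 and 770.1 in vehicle tumours (0.92, adjusted p = 0.000637). The survival gene Mcl1 rose 1.36-fold (adjusted p = 0.00622). Of 5 Bcl2l11 probe sets, 1 was called higher, and against the 4 h vehicle arrays Bcl2l11 differed by 0.22 (adjusted p = 0.547). Of 8 measured drug efflux transporters, 3 were called higher, Abcc1 (0.41, adjusted p = 0.0299), Abcc3 (1.26, adjusted p = 0.0102) and Abcc4 (1.33, adjusted p = 0.00576), and none of the 3 was called without vehicle array 1 (0.0673, 0.0647 and 0.0564). Against the 4 h vehicle arrays, Abcc4 differed by 0.22 (adjusted p = 0.788) and Abcc1 was not called (0.116). Abcc1 also lost its call without resistant array 1 or 3 (0.0861 and 0.148) or vehicle array 2 or 3 (0.107 and 0.068). Abcb1a, a drug pump gene chosen after its values were seen, gave 34.6, 43.8 and 13.5 in resistant tumours, against 19.5, 22.4 and 20.7 in vehicle tumours (adjusted p = 0.636).

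Among the largest single rises were genes of no list. Nexmif, an X-linked gene of neurite extension, gave 192, 187 and 245 in resistant tumours, against 2.1, 4.8 and 3.5 in vehicle tumours (log2 3.52 ± 0.20 SE, adjusted p = 1.08e-10). All vehicle values lay under the 40th percentile of their arrays, so the size of the rise depends on the offset, and 2 of its 3 probe sets were called higher. Nexmif gave 202, 275 and 183 at 48 h, and did not pass the test against 48 h (-0.07, adjusted p = 0.851). Padi4, an enzyme that converts arginine to citrulline, gave 427, 1031 and 260.1 in resistant tumours, against 56.5, 52.7 and 43 in vehicle tumours (7.58-fold, adjusted p = 1.92e-05). Dcpp3, of the demilune cell and parotid protein family, gave 3169.8, 6011 and 3326 in resistant tumours, against 757, 565 and 576 in vehicle tumours (6.23-fold, adjusted p = 7.13e-08), on a probe set that can match near-identical family members. Sptssb, a subunit of the first enzyme of sphingolipid synthesis, gave 119, 206 and 245 in resistant tumours, against 32.8, 3.3 and 9.7 in vehicle tumours (adjusted p = 6.38e-05). Padi4, Dcpp3 and Sptssb were each higher in all 3 resistant tumours at 40 mg/kg than on any 48 h array, with log2 differences of 4.45 (adjusted p = 1.10e-09), 6.11 (1.26e-15) and 2.88 (2.19e-06).

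The largest falls included Spon2, Sema3e, S100b, Sox1, Dcc and Calcrl. Spon2, a secreted matrix protein, gave 73.8, 33.9 and 23.2 in resistant tumours, against 615, 372 and 594 in vehicle tumours (9.47-fold lower, adjusted p = 4.28e-09). Sema3e, a guidance cue for axons and vessels, gave 84.7, 111 and 2.7 in resistant tumours, against 475, 373 and 647 in vehicle tumours (-3.02 ± 0.39 SE, adjusted p = 4.00e-05), and -2.15 without resistant array 3. S100b, a calcium-binding protein of glia, gave 257, 712 and 122 in resistant tumours, against 1324, 1020.4 and 1358 in vehicle tumours (-2.04, adjusted p = 0.00182), and -2.68 without resistant array 2. All 3 genes were below vehicle on each resistant array, which the rule for naming the largest falls requires. Sox1, a factor of neural progenitors, gave 155, 385 and 1.3 in resistant tumours, against 672, 487 and 647 in vehicle tumours (-2.53, adjusted p = 0.0117). Its difference was -1.22 without resistant array 3 and -3.49 without resistant array 2, and it was not called without vehicle array 1, where the adjusted p lay just above the threshold. Dcc, a netrin receptor, gave 1135, 213 and 224 in resistant tumours, against 1291, 1146 and 1342 in vehicle tumours (-1.68, adjusted p = 0.00465), with resistant tumour 1 close to vehicle and a difference of -2.44 without it. Calcrl, a receptor for calcitonin-like peptides, fell by 3.96-fold (adjusted p = 0.000193) on 1 of 2 probe sets.

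The 3 resistant tumours also differed from each other, in a number of genes that depends on the gap asked for. By a rule of at least 2 log2 units above or below the other 2 resistant arrays and every vehicle array, resistant tumour 1 stood above for 1 gene and below for none, resistant tumour 2 above for 9 and below for 1, and resistant tumour 3 above for 3 and below for 4. At a gap of 1 log2 unit the counts above and below were 30 and 7, 34 and 13, and 15 and 22. Resistant tumour 3 gave 4467 for Vgll2, a transcriptional cofactor, against 125 and 54.4 in the other resistant tumours and 17.4, 36.8 and 59.6 in vehicle tumours. It also gave 2125 for the adhesion gene Dscam, against 123 and 71.6 in the other resistant tumours and 133, 54.6 and 71 in vehicle tumours. Xist, the RNA of X inactivation that female cells make, gave 12.4 in resistant tumour 3, against 861 and 946 in the other resistant tumours and 138.5, 390.1 and 384 in vehicle tumours. The labels used here give no sex for the cells or hosts. In resistant tumour 2, Fgf7, a growth factor for epithelium, reached 949.6, against 28.5 and 50.7 in the other resistant tumours and 99.5, 138 and 143 in vehicle tumours. Chgb, a protein of secretory granules, reached 535 in resistant tumour 1, against 99.4 and 35.8 in the other resistant tumours and 82.5, 70.6 and 56 in vehicle tumours. These genes were chosen on these values, which are a description with no test.

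Resistant tumours at 40 mg/kg and at 160 mg/kg differed at 747 probe sets (2.13%), 273 higher and 474 lower at 40 mg/kg. By gene, 168 were called higher (1.12%) and 251 lower (1.68%), while 946 lay wholly above (6.32%) and 894 wholly below (5.97%) the 160 mg/kg arrays. The count was 1186 without resistant 40 mg/kg array 1, and 532 without 160 mg/kg array 2, the array low for Ccdc138. It was 19 when only these 6 arrays entered the fit, so it rested on the spread estimated over all groups. Padi4 gave 54.6, 30.5 and 66.4 at 160 mg/kg, and was higher at 40 mg/kg by a log2 difference of 2.96 (adjusted p = 1.81e-05). Egfr gave 507, 434 and 439 and Cdk6 2927, 1873 and 1749 at 160 mg/kg, and both were lower at 40 mg/kg (-1.25, adjusted p = 2.45e-05, and -1.64, adjusted p = 1.40e-05). Hhip (-1.34, adjusted p = 0.0422) and Sfrp1 (-1.53, adjusted p = 0.00189) were also lower at 40 mg/kg. Gli1 gave 703, 602 and 594 at 160 mg/kg, below all 40 mg/kg values, with a difference that did not pass the test (0.86 ± 0.31 SE, adjusted p = 0.21). That SE rests on the spread over all groups, and the Gli1 call against vehicle depended on the fit. Other fits were not read for the dose difference of Gli1. Of the macrophage, mitosis and replication lists, 1 gene was called between the doses, where 2.8% of genes were called. It was Bub3, a spindle checkpoint protein, which was chosen after its values were seen. The medians of the 3 lists were 0.66, -0.37 and -0.26. By sign alone, all 24 macrophage markers were higher at 40 mg/kg, and 44 of 45 mitosis genes and 38 of 47 replication genes lower, where the median gene differed by 0.01. Genes of a list are not independent of each other, so these sign counts are a description only. The summed signal of the macrophage markers was 20260 to 26444 at 40 mg/kg, against 6878, 15659 and 25410 on arrays 1, 2 and 3 at 160 mg/kg. Only array 3 at 160 mg/kg reached the range at 40 mg/kg. The summed signal of the mitosis genes was 26097 to 41112 at 40 mg/kg, against 51278, 46275 and 30892 on arrays 1, 2 and 3 at 160 mg/kg. Here too array 3 at 160 mg/kg lay inside the range at 40 mg/kg.

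**Figure D5:**
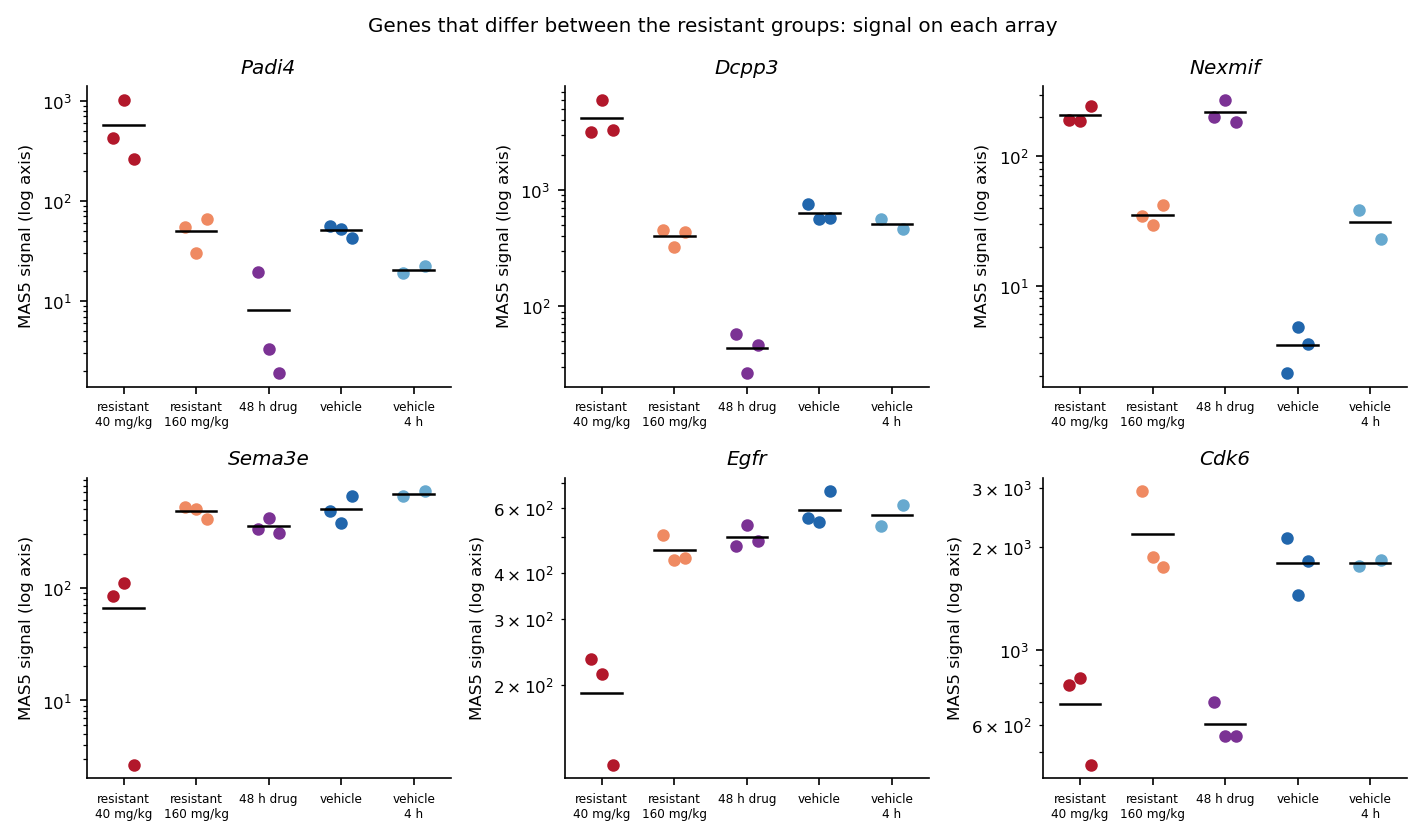
MAS5 signal on a log axis of 6 genes that differ between the resistant groups, 1 point per array and a bar at the group mean. Padi4, Dcpp3 and Nexmif are higher and Sema3e, Egfr and Cdk6 lower in the 3 resistant tumours at 40 mg/kg than in the 3 at 160 mg/kg and in vehicle.

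Against tumours 48 h after the same dose, 10504 probe sets differed (30%), 5111 higher and 5393 lower in the resistant tumours. Besides the cell cycle and Hedgehog genes given above, 28 of 30 ribosome biogenesis genes were higher and none lower, and 21 of 25 interferon genes were lower and none higher, in lists with medians of 0.85 and -1.11. Over all genes, 17.8% were higher and 19.2% lower. Slc17a6, a vesicular glutamate transporter of neurons, gave 15.7, 2.3 and 8.4 in resistant tumours, against 1549, 1416 and 1434 at 48 h (-5.94, adjusted p = 1.57e-13). Dcx, a microtubule protein of migrating neurons, gave 155, 52.4 and 1.2 in resistant tumours, against 1625, 1597 and 1606 at 48 h (-4.79, adjusted p = 4.53e-08).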

How the data were processed

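RNA from whole tumours was measured on Affymetrix mouse arrays of 45101 probe sets, 1 colour and 1 sample an array, so the number of arrays limits the precision. The deposited intensity values are linear MAS5 signals made by the authors, per the submitters' processing notes, whose version is not given in the sources used here; the values have a 2% trimmed mean of 150 on every array. Groups came from the sample descriptions. Probe sets took gene symbols from GEO's platform annotation (34945 with 1 symbol, 932 with several, 9160 with none), and a gene was represented by whichever of its probe sets was brightest on average. A probe set was tested where 2 or more of the 23 arrays gave it a signal above their own 40th percentile. Tests used log2(signal + 16) in limma 3.58.1 (R 4.3.3), with 1 mean for each of 8 groups, all 23 arrays, eBayes with a trend (15 residual and 8.46 prior degrees of freedom), and Benjamini-Hochberg adjustment over all 35069 probe sets. Figures were drawn with Python 3.11.15 and matplotlib 3.10.9. Tested on simulated data for the comparison with vehicle (34220 probe sets), the fit recovered 89 of 100 changes of 1 log2 unit and 99 of 100 of 2 units, with 11 false calls. Changes were planted only in brighter probe sets. The noise was normal and independent, with the same spread in every group for a given probe set. These figures therefore check the code and do not give the power or false-call rate on the real arrays.

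Named genes were 12 pathway genes, the 15 largest rises and falls against vehicle among called genes without overlap and with a signal of at least 200, up to 4 called members of each of 32 lists by p, and the 5 largest rises and falls of the other comparisons. The members and lists were chosen with earlier results of these data known. Promoter windows came from RefSeq (GRCm38.p6). Alternatives changed the offset, filter, normalization, trend, vehicle arrays, arrays in the fit and blocks, and left out each array in turn. Arrays numbered alike were no more alike than others (correlation of deviations -0.0145, -0.00114 and 0.0103 for numbers 1, 2 and 3), so the numbers were not taken as pairs. The arrays at 4, 8 and 24 h of drug entered only the estimate of the spread, the filter and the choice of the brightest probe set of a gene.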

Additional observations from a re-analysis of the deposited data

Results flagged for a closer look

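Of the named genes, 43 had a difference between the doses, with an adjusted p below 0.05 in limma for resistant tumours at 40 mg/kg minus resistant tumours at 160 mg/kg. Many of them were chosen for high or low values on the same 40 mg/kg arrays, and some for the dose difference itself, so their number is no measure of how the doses differ. The values that follow are log2 differences in that order, positive where the 40 mg/kg tumours were higher, and the vehicle arrays do not enter them.

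Genes higher at 40 mg/kg included Sptssb at 3.44, Dcpp3 at 3.27, the muscle calcium channel gene Cacna1s at 3.04, Padi4 at 2.96, Eva1a at 2.38 and Nexmif at 2.12. Signalling genes among them were the Notch target Hey1 at 1.78, Dusp4 at 1.32, Fst at 1.30, Id1 at 1.04, Ier2 at 0.94, Trp53inp1 at 0.77, Dusp6 at 0.70, Hes6 at 0.64 and Sox11 at 0.58.

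Genes lower at 40 mg/kg included Shisal2b at -3.58, Wipf3 at -3.04, Sema3e at -2.98, Sox1 at -2.74, Spon2 at -2.53, Fgd6 at -2.14, Dcc at -2.08, Sox18 at -2.05, Mab21l1 at -1.87, S100b at -1.87, Krt12 at -1.82 and Calcrl at -1.23. Hedgehog targets and growth signals among them were Cdk6 at -1.64, Sfrp1 at -1.53, Hhip at -1.34, Egfr at -1.25, Id2 at -1.21, Ntrk3 at -1.18 and the Notch ligand Jag1 at -0.75. Genes of oxygen sensing and glycolysis were Egln3 at -1.80, Tpi1 at -0.77, Ldha at -0.71 and Pkm at -0.56. The rest were Ifit2 at -1.70, the glutamate transporter gene Slc1a2 at -1.62, the muscle and interneuron gene Pvalb at -1.55, the myelin gene Mbp at -0.93 and Grin2c at -0.57.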

How the results depend on the processing

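Called probe sets against vehicle numbered 1294 with only the compared arrays in the fit, 1287 with the replicate block in that fit, 2286 with the replicate block over all arrays, and 1468 to 2671 when 1 array was left out. Between the doses they numbered 491 with eBayes without a trend, 19 with only the compared arrays (78.9% of them higher at 40 mg/kg, against 36.5% in the reported fit), 6 with the replicate block in that fit, 690 with it over all arrays, and 532 to 1186 with 1 array left out. Against 48 h they numbered 5021 with the replicate block and only the compared arrays, 8410 with it over all arrays, and 8667 to 10174 with 1 array left out. Fits of only the compared arrays, and those with 1 array left out, used fewer samples by construction, and the cause of the other shifts was not tested. Of 2645 values for 147 named genes under 18 alternatives, 2339 kept their direction and their side of the threshold, 24 (of 10 genes) changed sign while not called in either fit, 276 lost the call, 5 gained one, and 1 called value reversed, Fibp at 0.0887 against the 4 h vehicle arrays. Mitosis genes called lower numbered 18 without a trend. Dim probe sets limit the sizes of Nexmif, Sptssb, Cd163 and Alas2.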

Other observations

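Wnt genes held 1 called higher and 4 lower of 29 measured, where 5.39% of all genes were higher and 4.45% lower. The ligand gene Wnt4 gave 953, 398 and 616 in resistant tumours, against 1542, 1503 and 1767 in vehicle tumours (limma log2 difference -1.35 ± 0.28 SE, adjusted p = 0.00345). The receptor gene Fzd1 gave 1206, 1457 and 1147 in resistant tumours, against 2349, 1878 and 2478 in vehicle tumours (-0.81 ± 0.13 SE, adjusted p = 0.000525). Neither gene overlapped between the groups. Against the 4 h vehicle arrays, the adjusted p of Wnt4 was 0.116.

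Of 23 measured Notch genes, 2 were called higher (8.7%) and 2 lower (8.7%), read against the same background. The target gene Hey1 gave 448, 1732 and 209 in resistant tumours, against 183, 198 and 134 in vehicle tumours (1.61, adjusted p = 0.0105). Resistant tumour 2 was far above the rest, the difference was 0.80 without it and 2.28 without resistant array 3, and the adjusted p was 0.0569 without vehicle array 3. Fibp gave 185, 236 and 217 in resistant tumours, against 784, 1249 and 365 in vehicle tumours and 202 and 195 in the 4 h vehicle tumours, so its fall holds only against vehicle arrays with no stated time.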
